A study of Mus musculus with 24 samples.

Results

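Germinal center (GC) B cells at the peak of the response were compared with in vivo activated B cells, 3 libraries against 3, out of 24 libraries in 8 groups of 3. The members are the libraries that the labels place in these groups, and both groups hold dividing B cells taken straight from the animal. Peak GC cells and in vivo activated cells both came from the spleen of BALB/c mice, were bead purified and sorted by flow cytometry, and the labels give them no transgene or gene deletion. The labels do not name the antibodies of the sort, the immunogen, the day of harvest, the agent that activated the in vivo activated cells, or the age, sex or number of mice. Early GC, late GC, naive and in vitro activated cells (4 h, 12 h and 24 h) of the same strain make up the other 18 libraries and serve here for the estimate of spread, for the choice of genes tested and for levels given beside the comparison. As no animal or culture is named, the spread behind each p-value is that between libraries and may be technical.

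A GC is a transient structure in the follicle in which activated B cells divide rapidly, mutate their antibody genes and compete for antigen and T cell help. Cells alternate between a dark zone, where they divide and mutate, and a light zone, where they are selected. The repressor BCL6 holds the program in place, the receptor S1PR2 keeps the cells in the follicle, and exit leads to memory cells or to plasma cells under IRF4 and BLIMP1. An activated B cell outside the GC also enters the cell cycle, driven by antigen receptor, Toll-like receptor or T cell signals, through MYC and D-type cyclins. Setting peak GC cells against in vivo activated cells therefore compares dividing cells with dividing cells and asks what else differs.

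Expression values are the deposited log2 values, on a scale on which 0 is about 1 CPM (read counts scaled to the library total); sequencing depth is unknown. In the deposited values the distributions of all libraries are nearly identical, so a change in the total RNA of a cell cannot be seen. Of 23420 genes, the 11885 at 0 log2 or more in at least 3 of the 24 libraries were tested with limma, with an adjusted p (Benjamini-Hochberg, two-sided) under 0.05 as the threshold. Fold changes are log2 differences, peak GC minus in vivo activated, with their standard error (SE); group values are means with SD (n = 3). "Rose" and "fell" are used only of genes past that threshold.

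The comparison separated the groups widely. Peak GC cells had higher values than in vivo activated cells for 4058 genes (34.1% of those tested) and lower values for 4165 (35.0%), so 8223 genes (69.2%) passed the threshold. Of these, 2804 (23.6% of those tested) differed at least 2-fold, 1400 upward and 1404 downward. The 3 libraries of one group lay entirely on one side of the other 3 for 8306 genes (69.9%). The median difference over all tested genes was -0.01. Against a 1.5-fold change in place of no change, limma called 1487 genes higher and 1538 lower, and in 34 of the 45 gene lists described here that test lowered the count of called members by more than 1.5 times. With these shares as background, a list of genes stands out only where its members go mostly one way or mostly fail the test. Over the tested genes, correlations were 0.986 to 0.993 between libraries of the same group and 0.878 to 0.883 between the groups, which describes these libraries and carries no test.

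**Figure D1:**
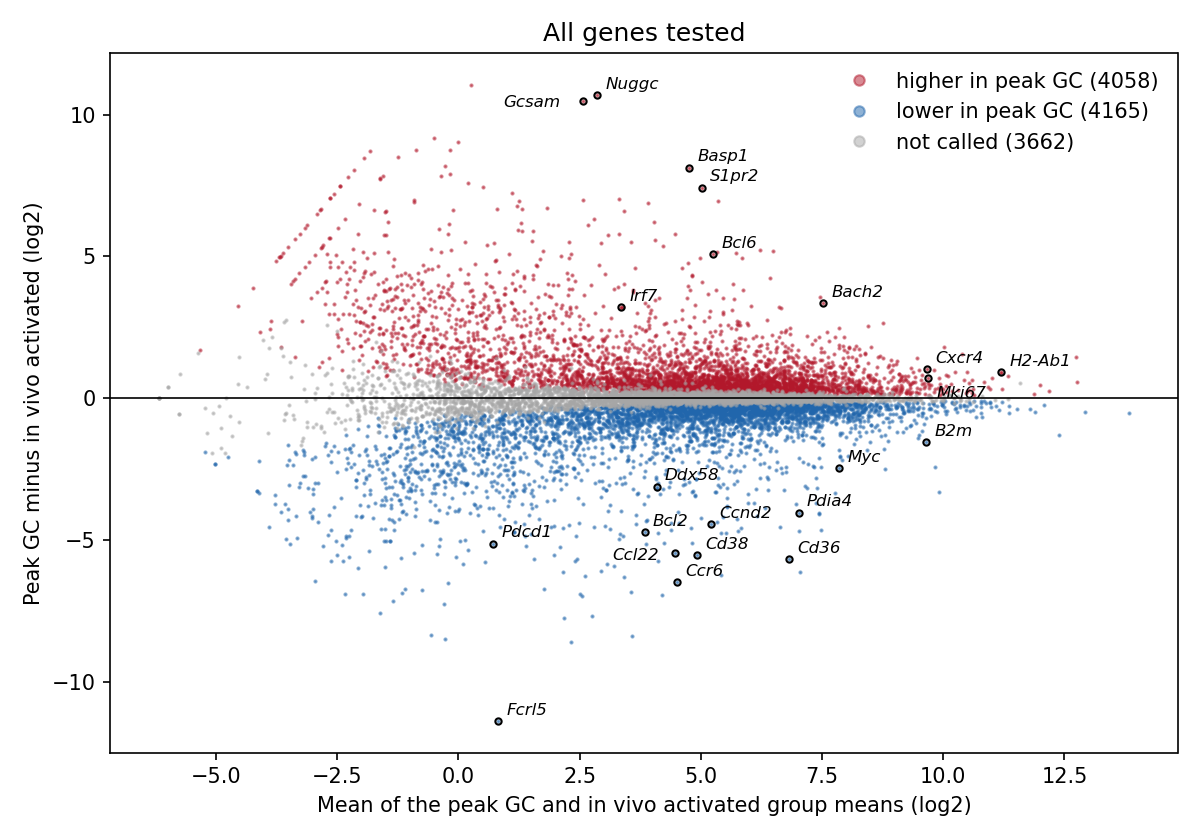
Each point is 1 of the 11885 tested genes, with the mean of both group means on the x axis and peak GC minus in vivo activated on the y axis (both log2); red points were higher, blue points lower and grey points not called. The 4058 higher and 4165 lower genes spread over the whole range of levels, and the widest differences lie among genes near or under 0 log2 in one group.

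Both groups carried B cell RNA. Cd79a, a chain of the antigen receptor complex, averaged 10.35 ± 0.15 in peak GC libraries and 10.27 ± 0.04 in in vivo activated libraries (adjusted p = 0.283 in limma). RNA of other cells was present at low level and was unequal. Summed CPM of 9 neutrophil markers lay between 23.4 and 102 in peak GC libraries, against 3.08 to 3.71 in in vivo activated libraries, and all 7 tested markers rose. The summed level of 9 NK cell markers was 45.9 to 65.2 CPM against 4.76 to 6.65 CPM (8 of 9 rose), that of 7 erythroid markers 173 to 205 CPM against 14.1 to 19.9 CPM (5 of 5 tested rose), and that of 13 macrophage and monocyte markers 124 to 281 CPM against 37.7 to 50 CPM (4 of 11 tested rose, 1 fell). Lyz2, a lysozyme of myeloid cells, accounted for much of the last sum, with 6.37, 6.80 and 7.73 in peak GC libraries against 2.04, 2.98 and 2.96 in in vivo activated libraries. For T cells, 11 markers summed to 182 to 225 CPM in peak GC libraries and 209 to 217 CPM in in vivo activated libraries, with 4 of 7 tested higher. Lck, a kinase that did not pass the test, made up most of that sum; without it the sum was 11.4 to 15.4 CPM in peak GC libraries, against 5.22 to 6.83 CPM in in vivo activated libraries. Markers of stroma and follicular dendritic cells summed to 43.9 to 57.4 CPM in peak GC libraries, against 128 to 161 CPM in in vivo activated libraries, and 4 of 5 tested fell. Pecam1 made up most of both sums. It had 5.49, 5.49 and 5.22 in peak GC libraries, against 6.73, 7.13 and 6.84 in in vivo activated libraries. Mfge8 did not pass the test (adjusted p = 0.933 in limma), and Col1a1, Col1a2, Col3a1 and Cxcl13 were under 1 CPM in all 6 libraries. Dendritic cell markers summed to 60.5 to 74.4 CPM in peak GC libraries and 28.7 to 29.9 CPM in in vivo activated libraries. Of 5 tested, 2 rose (Flt3 and Siglech), 2 fell (Itgax and Xcr1) and Zbtb46 did not pass the test. Flt3, which averaged 5.91 in peak GC libraries and 3.94 in in vivo activated libraries, made up most of the peak GC sum. Platelet markers summed to 1.38 to 2.18 CPM in peak GC libraries and 0.52 to 0.97 CPM in in vivo activated libraries. The alpha-globin genes Hba-a1 and Hba-a2 were at the floor in all 6 libraries. The beta-globin gene Beta-s averaged 6.69 in peak GC libraries and 2.87 in in vivo activated libraries, and rose by 3.82. The part of these cells in the results for weakly expressed genes was not tested. In bulk RNA, fewer cells of a type and less RNA per cell cannot be told apart.

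The genes that mark GC B cells were far higher in peak GC cells. Of 18 listed GC genes, 17 rose and 1 fell, with a median difference of 5.41. S1pr2 (GRCm38/mm10 chr9:20962361-20976781, minus strand), the receptor that confines cells to the follicle, had 8.76, 8.71 and 8.73 in peak GC libraries, against 1.28, 1.29 and 1.35 in in vivo activated libraries. The values within each group were nearly the same and the groups lay far apart. The difference was 7.43 (SE 0.10, adjusted p = 3.23e-24 in limma). Bcl6 (chr16:23965052-23988852, minus strand) had 7.93, 7.66 and 7.82 in peak GC libraries, against 2.35, 2.90 and 2.87 in in vivo activated libraries, a difference of 5.09 (SE 0.17, adjusted p = 4.09e-16). All 3 in vivo activated libraries were low for each of these genes. For Bcl6 they also lay under naive cells, which averaged 6.72 ± 0.04, and beside cells after 24 h in vitro, at 2.77 ± 0.20.

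Nuggc and Gcsam showed the widest differences of the list. Gcsam encodes an adaptor that restrains the motility of GC B cells; Nuggc encodes a nuclear GTPase of GC B cells. Nuggc (chr14:65598546-65648531) had 8.31, 8.42 and 7.88 in peak GC libraries, against -3.34, -2.10 and -2.04 in in vivo activated libraries. Gcsam (chr16:45610380-45622867) had 7.91, 7.55 and 7.96 against -2.83, -1.97 and -3.26. Both were strongly expressed in each peak GC library and under 1 CPM in each in vivo activated library. The differences of 10.70 for Nuggc and 10.49 for Gcsam depend on how such low values are treated: with a pseudocount of 1 CPM they were 7.96 and 7.59. Further down the list, Basp1 rose by 8.14, Rassf6 by 6.87, Mybl1 (A-MYB) by 6.23, Nt5e (the ectonucleotidase CD73) by 5.58, Efnb1 (ephrin B1) by 4.78, Plxnb2 (plexin B2) by 4.24 and Mef2b by 2.32. Fas, the death receptor commonly used to identify GC B cells, averaged 6.01 ± 0.22 in peak GC libraries and 3.22 ± 0.13 in in vivo activated libraries, and rose by 2.79; whether Fas or Cd38 was used in the sort is not given in the labels. Lmo2 was the exception. It averaged 5.42 ± 0.18 in peak GC cells and 6.18 ± 0.16 in in vivo activated cells, and fell by 0.76.

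**Figure D2:**
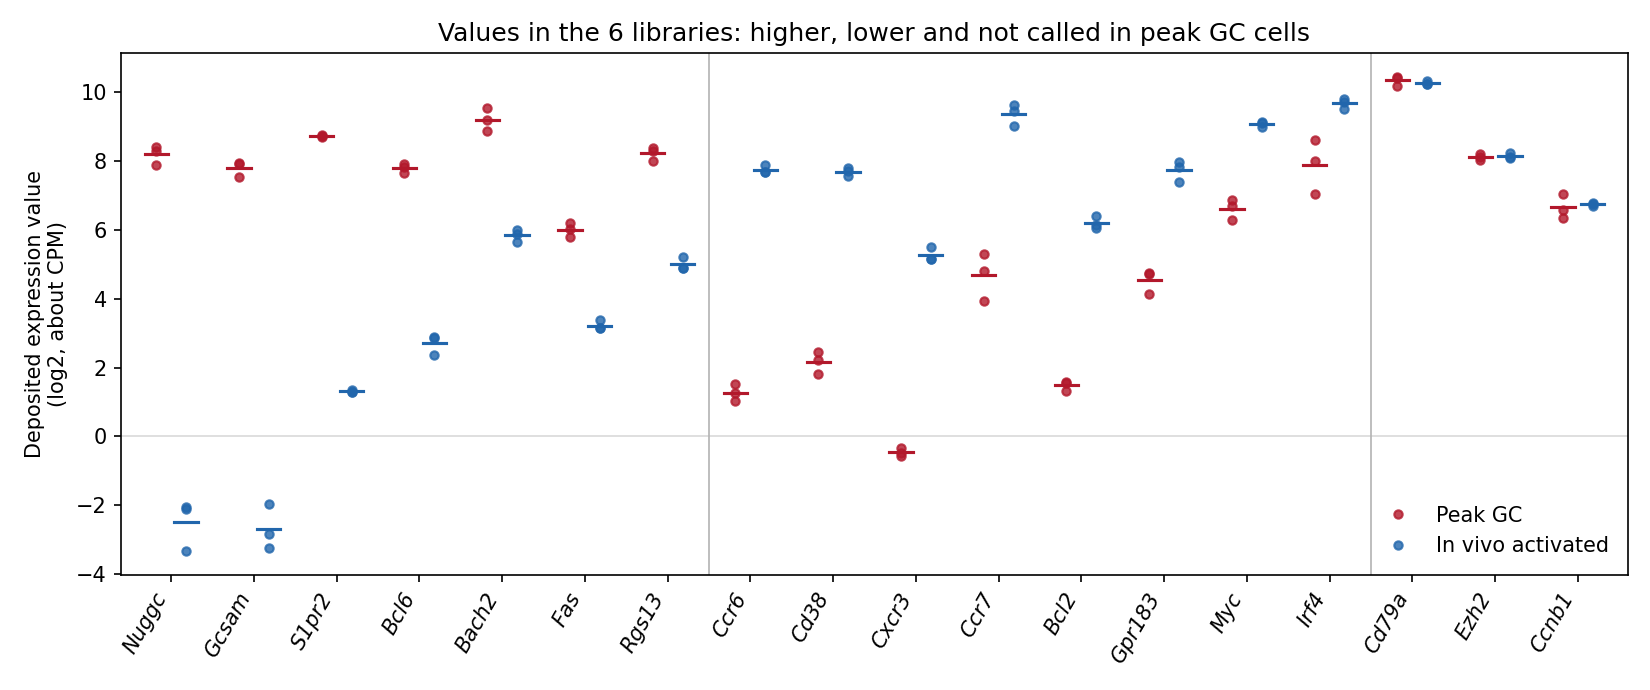
Deposited log2 values of 18 genes in the 6 libraries, with peak GC libraries in red at the left of each pair, in vivo activated libraries in blue at the right, and bars for group means. Genes of the left block were higher and genes of the middle block lower in peak GC cells, with no overlap; Cd79a, Ezh2 and Ccnb1 at the right did not pass the test.

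Genes of the dark zone mostly rose and genes of the light zone more often fell. In the dark zone list 8 of 12 rose and 1 fell (median 0.83), and in the light zone list 6 of 17 rose and 10 fell (median -1.0). The dark zone count includes Gcsam and Basp1, which are also in the GC list, and Polh, Cxcr4, Foxo1, Mki67 and Ccnb2. Light zone genes that fell included Myc, Egr1, Egr2, Egr3, Ccnd2 and Cd69, while Cd86, Cd83, Cd40 and Slamf1 rose. Cd86, a ligand of CD28, had 7.38, 7.39 and 7.36 in peak GC libraries, against 6.01, 6.0 and 6.11 in in vivo activated libraries.

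Receptors that place B cells in the spleen changed in opposite directions. Of 18 tested trafficking receptors 3 rose and 11 fell, with a median difference of -0.63. Besides S1pr2, Cxcr4, the dark zone chemokine receptor, rose by 1.03 (SE 0.33), with 9.78, 10.31 and 10.42 in peak GC libraries against 9.40, 9.28 and 8.75 in in vivo activated libraries, and the cannabinoid receptor Cnr2 rose by 0.68. Ccr6 (chr17:8236043-8257141, plus strand), a chemokine receptor of activated and memory B cells, had 1.25, 1.03 and 1.52 in peak GC libraries, against 7.67, 7.90 and 7.67 in in vivo activated libraries, and fell by 6.48 (SE 0.14, adjusted p = 1.46e-20 in limma). Each in vivo activated library held Ccr6 near the level of naive cells (7.57 ± 0.02). Cxcr3, which naive cells hardly expressed (-0.35 ± 0.35), averaged -0.46 ± 0.13 in peak GC cells and 5.28 ± 0.20 in in vivo activated cells. The fall of Cxcr3 was 5.73, or 4.52 with a pseudocount of 1 CPM. Ccr7, which draws cells to the T zone, fell by 4.69, the integrin chain Itga4 by 2.65, and Gpr183 (EBI2), which leads cells to the edge of the follicle, by 3.19. Cxcr5, the receptor for follicle entry, averaged 8.13 ± 0.45 in peak GC cells and 7.76 ± 0.14 in in vivo activated cells and did not pass the test (adjusted p = 0.15). Among 12 G proteins and their RGS regulators 7 rose and 3 fell. Gna13, the G protein that relays S1PR2 signals, rose by 1.45 (SE 0.06) and Rgs13, a GC regulator of chemokine responses, by 3.22, whereas Rgs3 fell by 2.92.

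Naive follicular B cell genes were mostly lower: 12 of 17 fell and 2 rose (median -1.91). Cd38 (chr5:43868553-43912375, plus strand), which mouse B cells lose on entering the GC, had 2.44, 2.23 and 1.81 in peak GC libraries, against 7.57, 7.80 and 7.71 in in vivo activated libraries, and fell by 5.53 (SE 0.11). In vivo activated cells held more Cd38 than naive cells did on average (6.97 ± 0.03), and late GC cells less than peak GC cells (0.25 ± 0.18); these orders were not tested here. Ly6d fell by 6.83, Bcl2 by 4.72 and the quiescence factor Klf3 by 2.98. Il4ra, the chain that binds interleukin 4, rose by 1.29.

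All 24 B cell transcription factors of the list passed the test, 17 higher and 7 lower. Bach2 (chr4:32238804-32586108, plus strand), a repressor that delays plasma cell fate, had 9.54, 9.18 and 8.88 in peak GC libraries and 5.64, 5.88 and 6.01 in in vivo activated libraries. It rose by 3.36 (SE 0.11, adjusted p = 1.63e-16 in limma), and in vivo activated cells had the lowest mean of the 8 groups for Bach2. Id3, an inhibitor of E proteins, rose by 2.09, the coactivator Pou2af1 (OBF1), required for GC formation, by 1.56, Ets1 by 1.40 and Foxo1 by 0.94. Pax5 (0.38), Spib (0.35) and Irf8 (0.23) rose by small amounts. The factors that fell included Zbtb32, by 2.86, Klf2, by 1.39, and Foxp1, by 1.06.

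**Figure D3:**
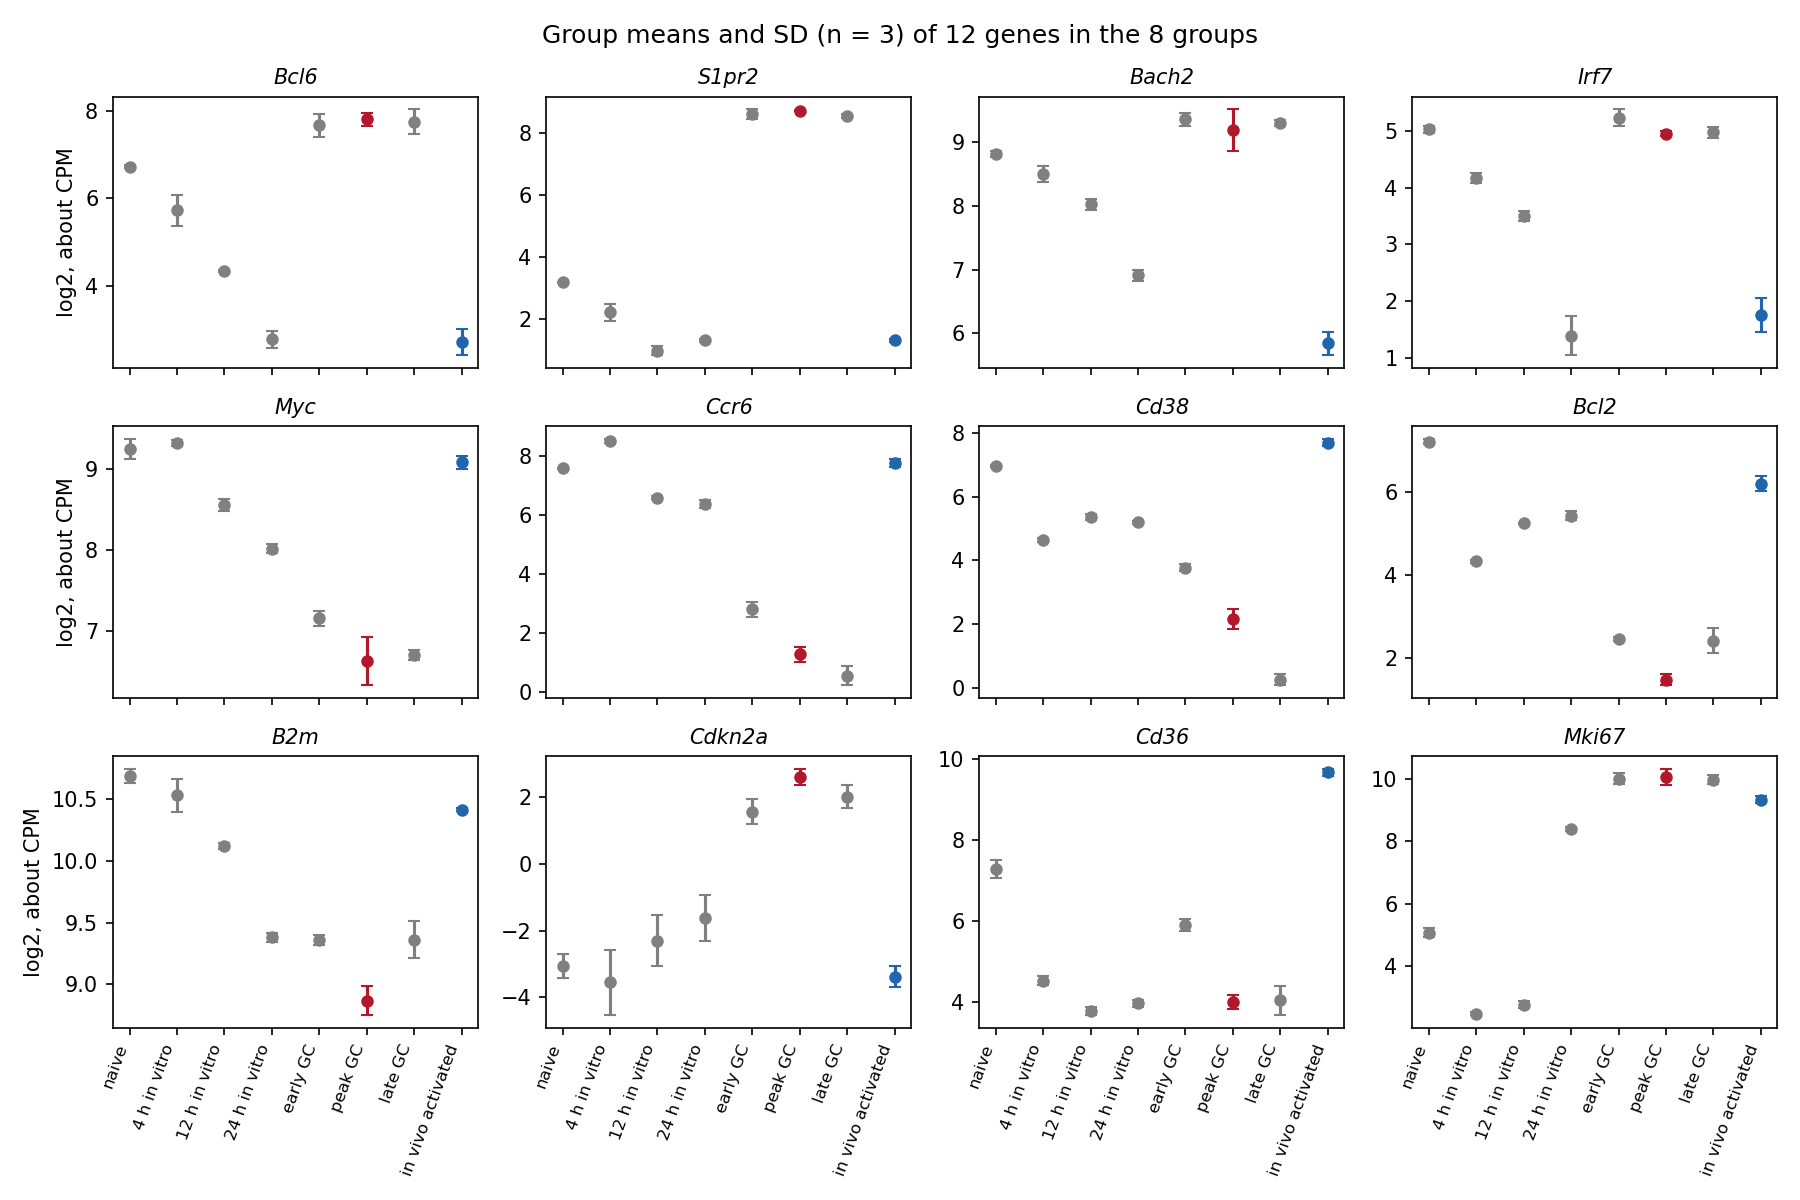
Group means (points) and SD (bars, n = 3) of 12 genes in all 8 groups on the deposited log2 scale, each panel with its own axis; peak GC cells are red and in vivo activated cells blue. Bcl6, S1pr2, Bach2, Irf7 and Cdkn2a were high in the GC groups and low in in vivo activated cells, while Myc, Ccr6, Cd38, Bcl2, B2m and Cd36 were the other way round.

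The plasma cell program split, with 7 of 17 tested members higher and 8 lower. Irf4 (chr13:30749226-30766976, plus strand) had 7.04, 8.0 and 8.61 in peak GC libraries, against 9.80, 9.72 and 9.53 in in vivo activated libraries, and fell by 1.80 (SE 0.26, adjusted p = 7.11e-06 in limma). The peak GC libraries spread over more than 1 log2 unit for Irf4, yet all lay under the other group. Prdm1 (BLIMP1) averaged 2.34 ± 0.29 in peak GC cells and 4.05 ± 0.15 in in vivo activated cells. Naive cells averaged 10.21 ± 0.11 for Irf4 and 4.71 ± 0.13 for Prdm1, above both groups, and these orders were not tested here. Derl3 fell by 2.40 and the syndecan Sdc1 by 1.95. Against these, the joining chain gene Igj rose by 2.66 and Eaf2, an elongation factor partner also known from GC cells, by 5.10 (SE 0.10). Xbp1, the transcription factor of secretory cells, averaged 7.25 ± 0.53 in peak GC cells and 7.46 ± 0.14 in in vivo activated cells (adjusted p = 0.277). Beside these values, the summed level of 8 plasma cell markers was 1810 to 2240 CPM in peak GC libraries and 967 to 1060 CPM in in vivo activated libraries, with 3 of 7 tested higher and 3 lower. Without Igj the sum was 786 to 1120 CPM in peak GC libraries and 813 to 881 CPM in in vivo activated libraries, with overlap between the groups. The part of plasma cells in the program's values was not tested.

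Antigen receptor signalling genes differed by small amounts in both directions: 12 of 25 rose, 9 fell and 1 of them, the adaptor Bank1, changed 2-fold, with a fall of 1.18. The kinase Syk rose by 0.69, Cd79b by 0.80 and Pik3cd by 0.84, while Nfatc1 fell by 0.75. Of 12 inhibitory coreceptors 6 fell, 1 rose and 5 did not pass the test. Pdcd1 (PD-1) had -2.08, -2.10 and -1.37 in peak GC libraries and 3.45, 3.27 and 3.12 in in vivo activated libraries. Its fall was 5.13, or 3.06 with a pseudocount of 1 CPM, since peak GC cells were under 1 CPM. Cd5 fell by 3.25, Ceacam1 by 2.85, and Cd72 and the inhibitory Fc receptor gene Fcgr2b by 1.38 each. Cd22 was the member that rose, by 0.25.

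Costimulatory and activation genes all passed the test, 9 higher and 10 lower of 19. Slamf1 rose by 2.72, Tnfrsf8 (CD30) by 3.21, Icosl, the ligand of ICOS on follicular helper T cells, by 2.35 and Cd86 by 1.33. Cd274 (PD-L1) fell by 2.58, Il2ra by 2.23, Tnfrsf13b (TACI) by 1.70 and Cd80 by 1.45. Among NF-kB subunits and targets 13 of 23 rose and 9 fell. Members of the alternative pathway were higher (Nfkb2 by 0.70, Relb by 0.68, Map3k14 by 1.01), and Rel and Nfkb1 of the classical pathway were lower, by 0.62 and 0.94. Nfkbid (IkBNS) fell by 2.24 and Bcl2a1d by 2.41, although reads of the near-identical Bcl2a1 copies may be split by the counting. Ccl22, a chemokine for helper T cells, had 2.38, 1.69 and 1.12 in peak GC libraries and 7.90, 6.30 and 7.43 in in vivo activated libraries. The groups did not overlap, and Ccl22 fell by 5.48 (SE 0.48).

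Immediate-early genes were mostly lower in peak GC cells. Of 21 immediate-early genes 15 fell and 5 rose (median -0.81), with 9 falling at least 2-fold. Myc (chr15:61985391-61990374, plus strand), the driver of growth after activation, had 6.29, 6.87 and 6.71 in peak GC libraries, against 9.12, 9.14 and 8.99 in in vivo activated libraries, and fell by 2.46 (SE 0.10, adjusted p = 5.06e-16 in limma). In vivo activated cells lay beside naive cells (9.25 ± 0.13) for Myc. Naive cells averaged above in vivo activated cells for Ier2, which fell (8.7 against 7.9). The same held for Jund (11.2 against 9.0) and Dusp2 (9.0 against 8.2), which rose. With Myc, these are the members with the smallest p in each direction in limma, and the orders with naive cells were not tested here. Nr4a1 fell by 2.51, Egr3 by 2.39 and Egr2 by 2.32, while Ier3 rose by 3.01. Among 15 tested cytokines and chemokines 10 fell and 3 rose. Ebi3, a subunit of interleukins 27 and 35, fell by 3.45, Ccl3 by 2.68, Ccl4 by 2.0, Tnf by 1.85 and Il10 by 1.54, whereas Ltb (lymphotoxin beta), which maintains follicular stroma, rose by 2.32. Interleukin receptors and JAK-STAT genes gave 9 higher and 14 lower of 26. Il21r, the receptor for the helper cytokine interleukin 21, rose by 1.34 and the feedback inhibitor Socs1 by 2.55. Il6ra fell by 2.96 and Il5ra by 2.02.

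Interferon response genes were mostly lower, with exceptions at the top. Of 28 tested, 17 fell, 4 rose and 7 did not pass (median -0.83); with a filter at 10 CPM, which left fewer members in the test, 9 fell. Ddx58 (RIG-I), a sensor of viral RNA, had 2.87, 2.40 and 2.32 in peak GC libraries, against 5.45, 5.82 and 5.67 in in vivo activated libraries, and fell by 3.12 (SE 0.12, adjusted p = 2.43e-16 in limma). Ifih1 (MDA5), the related sensor, fell by 2.81, the antiviral GTPases Mx2 and Mx1 by 2.95 and 2.55, Gbp2 by 2.16 and Ifit3 by 1.97. Irf7, a transcription factor that amplifies interferon production, went the other way. It had 4.99, 4.92 and 4.96 in peak GC libraries, against 1.48, 1.70 and 2.08 in in vivo activated libraries, and rose by 3.20 (SE 0.14); naive cells averaged 5.03 ± 0.07. Rsad2 (viperin) rose by 1.79 from low levels, and Isg15 averaged 1.55 ± 0.11 in peak GC cells and 1.71 ± 0.16 in in vivo activated cells (adjusted p = 0.364).

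Promoters of this list are shown because the interferon element, to which the STAT and IRF factors bind, is a known control element of interferon-induced genes. The letters GAAANNGAA, on either strand, were searched in RefSeq windows (GRCm38.p6, 250 bases before to 50 after the annotated start). They were found in 14 of 28 windows of list members, against 8.56% of all 32851 windows. By gene, 13 of the 21 members that have a window had a match, and members with several windows count once here. Of the 13, 7 fell, 1 rose and 5 did not pass; of the 8 without a match, 4 fell and 2 rose. The letters were therefore present in genes of each kind. A match is a description of letters and not a measured site. Capitals mark the matches, on whichever strand. Ddx58, Ifih1 and Ifit3 fell, Rsad2 rose and Isg15 did not pass the test.
Ddx58 (chr4:40239776-40240075, minus strand): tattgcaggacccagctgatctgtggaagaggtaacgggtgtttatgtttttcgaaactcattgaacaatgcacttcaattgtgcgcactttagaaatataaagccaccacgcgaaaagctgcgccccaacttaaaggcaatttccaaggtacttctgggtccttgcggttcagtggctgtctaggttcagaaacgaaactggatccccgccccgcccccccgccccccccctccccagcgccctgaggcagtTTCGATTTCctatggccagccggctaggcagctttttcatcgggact
Ifih1 (chr2:62646206-62646505, minus strand): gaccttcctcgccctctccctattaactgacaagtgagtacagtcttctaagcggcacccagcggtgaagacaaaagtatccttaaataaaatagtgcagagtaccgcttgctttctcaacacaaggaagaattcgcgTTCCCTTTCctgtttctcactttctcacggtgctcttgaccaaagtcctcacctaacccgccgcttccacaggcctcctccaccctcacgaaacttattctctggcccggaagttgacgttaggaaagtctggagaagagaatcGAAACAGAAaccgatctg
Ifit3 (chr19:34583279-34583578, plus strand): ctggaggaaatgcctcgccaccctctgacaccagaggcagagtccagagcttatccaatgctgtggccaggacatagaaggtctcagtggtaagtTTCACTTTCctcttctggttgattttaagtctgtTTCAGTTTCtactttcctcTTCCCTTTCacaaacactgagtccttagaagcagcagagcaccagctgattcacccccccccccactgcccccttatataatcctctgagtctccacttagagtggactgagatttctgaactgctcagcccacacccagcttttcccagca
Rsad2 (chr12:26456403-26456702, minus strand): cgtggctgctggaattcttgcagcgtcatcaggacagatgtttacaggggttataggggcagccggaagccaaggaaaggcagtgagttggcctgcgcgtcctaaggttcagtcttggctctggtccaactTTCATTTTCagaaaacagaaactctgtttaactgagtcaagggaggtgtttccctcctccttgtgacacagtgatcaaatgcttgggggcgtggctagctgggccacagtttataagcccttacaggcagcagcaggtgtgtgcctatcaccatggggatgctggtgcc
Isg15 (chr4:156200769-156201068, minus strand): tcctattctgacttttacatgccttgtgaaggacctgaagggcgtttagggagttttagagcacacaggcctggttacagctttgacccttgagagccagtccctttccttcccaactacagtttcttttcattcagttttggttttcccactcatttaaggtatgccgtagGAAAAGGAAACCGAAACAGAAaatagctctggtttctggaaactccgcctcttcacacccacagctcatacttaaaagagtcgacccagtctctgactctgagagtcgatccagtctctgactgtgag

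Antigen presentation genes divided by class. In the MHC class II pathway 11 of 12 rose and 1 fell (median 0.69). H2-Ob rose by 1.25, H2-Ab1 by 0.93 with 11.68, 11.80 and 11.48 in peak GC libraries against 10.68, 10.78 and 10.72 in in vivo activated libraries, and the class II transactivator Ciita by 0.79. The protease gene Ctss (cathepsin S), which trims the invariant chain, was the one that fell, by 1.0. In the class I pathway 11 of 14 fell and 1 rose (median -0.65). Nlrc5, the class I transactivator, had 4.13, 4.07 and 3.65 in peak GC libraries and 7.06, 7.20 and 7.10 in in vivo activated libraries, and fell by 3.17 (SE 0.11, adjusted p = 1.95e-17 in limma). B2m, the light chain of class I molecules, had 8.74, 8.88 and 8.98 in peak GC libraries, against 10.40, 10.43 and 10.42 in in vivo activated libraries. It fell by 1.55, with H2-D1 and H2-K1 falling by 1.5 and 1.40. Reads of H2-DMb1 and H2-DMb2, and of H2-D1 and H2-K1, may be shared between near-identical copies.

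Anti-apoptotic members of the BCL2 family fell, 6 of 7 tested, with none higher at an adjusted or unadjusted p under 0.05 in limma (median -1.80). Bcl2 (chr1:106538178-106714274, minus strand), which keeps resting B cells alive, had 1.32, 1.55 and 1.57 in peak GC libraries, against 6.07, 6.41 and 6.13 in in vivo activated libraries. It fell by 4.72 (SE 0.11, adjusted p = 1.97e-20 in limma). Mcl1, the member on which GC B cells are known to depend, averaged 9.46 ± 0.12 in peak GC cells and 9.53 ± 0.03 in in vivo activated cells (difference -0.07, SE 0.07, adjusted p = 0.312). Pro-apoptotic genes gave 6 higher and 5 lower of 13 tested. Bbc3 (PUMA) had 4.35, 5.53 and 5.66 in peak GC libraries and 2.26, 2.03 and 2.22 in in vivo activated libraries, a rise of 3.01 (SE 0.28). In the PI3K and mTORC1 pathway 12 of 22 rose and 4 fell; Akt1 rose by 1.13 and Foxo3 fell by 1.45.

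Most mitotic genes did not pass the test. Of 29 tested, 20 did not pass, 7 rose and 2 fell (median -0.07), none changed 2-fold, and limma called none against a 1.5-fold change, with 0 also at an unadjusted p under 0.05. Without peak GC replicate 3, 3 rose. Ccna2 (cyclin A2) averaged 8.11 ± 0.17 in peak GC cells and 8.16 ± 0.04 in in vivo activated cells, and Ccnb1 (cyclin B1) 6.66 ± 0.36 and 6.74 ± 0.04 in the same order. Naive cells held 2.81 ± 0.12 for Ccna2 and 1.62 ± 0.28 for Ccnb1, so both groups stood far above resting cells. Mki67, the proliferation marker, had 10.35, 9.85 and 9.95 in peak GC libraries and 9.22, 9.43 and 9.33 in in vivo activated libraries, and rose by 0.72 (SE 0.11). Ube2c fell by 0.47 and Aurka by 0.36. The letters TTTGAA, the core of the cell cycle homology element, were found in 19 of 26 windows of mitotic genes, against 17.9% of all windows. By gene, 18 of the 25 mitotic genes that have a window had a match. Of the 18, 6 rose, 2 fell and 10 did not pass. Cdc20, the activator of the anaphase-promoting complex (rise of 0.31), and Ube2c, its ubiquitin-conjugating enzyme, are shown with the match in capitals, since the same letters lie near the start of a gene that rose and of one that fell.
Cdc20 (chr4:118437294-118437593, minus strand): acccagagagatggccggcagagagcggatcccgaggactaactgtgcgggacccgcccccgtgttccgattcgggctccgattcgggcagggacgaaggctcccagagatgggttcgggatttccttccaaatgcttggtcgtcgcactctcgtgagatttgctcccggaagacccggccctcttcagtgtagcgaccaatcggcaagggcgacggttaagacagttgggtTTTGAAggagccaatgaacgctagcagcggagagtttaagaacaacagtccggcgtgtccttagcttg
Ube2c (chr2:164769679-164769978, plus strand): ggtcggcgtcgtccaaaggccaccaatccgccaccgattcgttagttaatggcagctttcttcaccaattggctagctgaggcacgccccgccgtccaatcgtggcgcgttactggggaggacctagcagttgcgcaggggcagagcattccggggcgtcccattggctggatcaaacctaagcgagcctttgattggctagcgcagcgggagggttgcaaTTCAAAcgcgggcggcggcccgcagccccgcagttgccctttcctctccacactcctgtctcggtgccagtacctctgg

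S phase genes rose more often than they fell, by small amounts: 15 of 30 rose and 7 fell (median 0.13), and 1 rise was called against a 1.5-fold change. Mcm2, of the replicative helicase, rose by 0.64, whereas Tyms (thymidylate synthase) fell by 0.88. The control of G1 differed more. Of 20 tested G1 cyclins, kinases and inhibitors 12 rose and 7 fell, and 12 of these changed at least 2-fold. Ccnd2 (cyclin D2) had 3.20, 2.93 and 2.86 in peak GC libraries, against 7.53, 7.43 and 7.33 in in vivo activated libraries, and fell by 4.43 (SE 0.15, adjusted p = 2.38e-16 in limma). Ccnd3 (cyclin D3), the D-type cyclin that GC B cells require, had 7.86, 7.88 and 7.82 in peak GC libraries and 6.04, 6.08 and 6.30 in in vivo activated libraries, and rose by 1.72 (SE 0.07). For each of these D-type cyclins the groups did not overlap, and the changes had opposite signs. Rb1 (chr14:73183673-73325822, minus strand), the retinoblastoma protein gene, had 5.28, 5.29 and 5.31 in peak GC libraries and 7.82, 7.79 and 7.83 in in vivo activated libraries, and fell by 2.52. The inhibitor Cdkn1b (p27) fell by 1.44. Other inhibitors rose, with low levels in in vivo activated cells: Cdkn2a, which encodes p16 and p19ARF, averaged 2.60 ± 0.25 in peak GC cells and -3.38 ± 0.32 in in vivo activated cells, and Cdkn1a (p21) averaged 2.81 ± 0.63 and 0.14 ± 0.20 in the same order.

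Genes of mutation and repair included some of the clearest rises. Of 27 tested, 13 rose and 5 fell (median 0.25). The glycosylase gene Neil1 rose by 5.23 (SE 0.07), Hmces (listed as 8430410A17Rik), a sensor of abasic sites, by 5.19, the translesion polymerase gene Polh by 2.60, Lig4 by 2.48 and Rev1 by 1.76. Ung, which removes uracil from DNA, averaged 6.07 ± 0.08 in peak GC cells and 6.14 ± 0.16 in in vivo activated cells (adjusted p = 0.391). Xrcc5 and Xrcc6, the Ku subunits of end joining, fell by 0.59 and 0.28. Polycomb and DNA methylation genes gave 5 higher and 6 lower of 14. Ezh2, the methyltransferase of polycomb repressive complex 2 and a dependency of GC cells, averaged 8.12 ± 0.08 in peak GC cells and 8.15 ± 0.07 in in vivo activated cells (difference -0.03, SE 0.06, adjusted p = 0.698). Dnmt1 rose by 0.76, and Tet2, Tet1 and Dnmt3a fell by 2.77, 2.39 and 2.07.

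**Figure D4:**
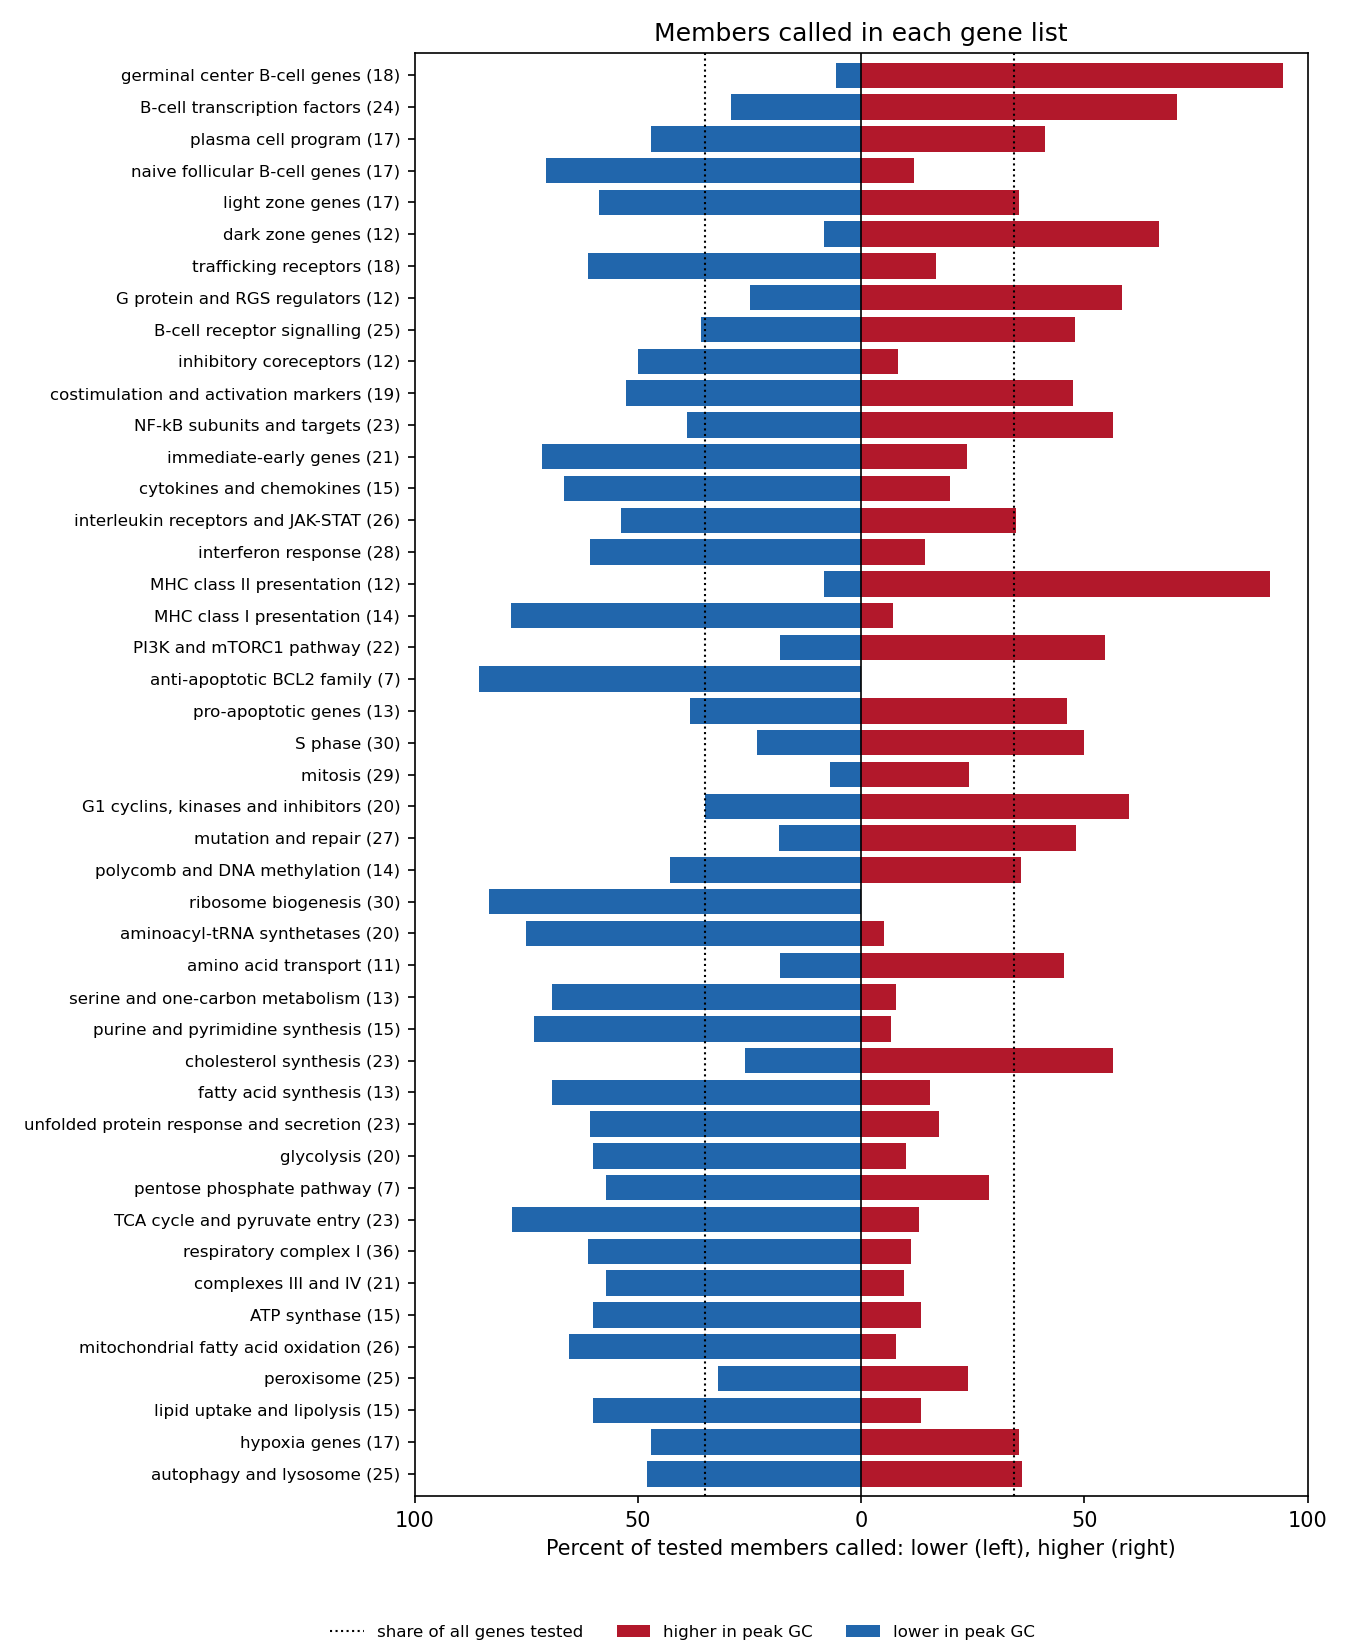
Percent of tested members of each of 45 gene lists called higher (red, right) or lower (blue, left) in peak GC cells, with the number tested in brackets and dotted lines at the share of all tested genes (34.1% higher, 35.0% lower). GC genes and MHC class II genes lie farthest to the right of their line, anti-apoptotic and ribosome biogenesis genes farthest to the left, and mitotic genes fall short of both lines.

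Growth and biosynthesis genes were lower in peak GC cells by small, even amounts. Of 30 ribosome biogenesis genes 25 fell and none rose (median -0.52; 0 were higher at an unadjusted p under 0.05), with Polr1c falling by 1.03, Rrp1b by 1.0 and nucleophosmin (Npm1) by 0.65. Among 20 cytosolic aminoacyl-tRNA synthetases 15 fell and Vars rose, among 15 genes of purine and pyrimidine synthesis 11 fell and Prps2 rose, and among 13 tested genes of serine and one-carbon metabolism 9 fell and 1 rose. Their median differences were -0.35, -0.62 and -0.41. Cad, the first enzyme complex of pyrimidine synthesis, had 6.99, 6.82 and 6.84 in peak GC libraries and 7.87, 7.58 and 7.80 in in vivo activated libraries. Few of these falls passed limma's test against a 1.5-fold change, by which 4 ribosome biogenesis genes, 3 synthetases, 3 nucleotide synthesis genes and 2 one-carbon genes were called lower. Amino acid transporters gave 5 higher and 2 lower of 11 tested.

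The secretory apparatus was lower in parts. Of 23 genes of the unfolded protein response and secretion 14 fell and 4 rose (median -0.42). Pdia4, a disulfide isomerase of the endoplasmic reticulum, had 4.97, 4.97 and 5.06 in peak GC libraries, against 8.94, 9.11 and 9.05 in in vivo activated libraries, and fell by 4.04 (SE 0.07, adjusted p = 8.46e-23 in limma). The chaperone gene Hsp90b1 (GRP94) fell by 2.44, whereas Hspa5 (BiP) fell by 0.42. The stress sensor kinase gene Eif2ak3 (PERK) rose by 2.02 and Herpud1 by 1.56. Fatty acid synthesis genes fell in 9 of 13 tested and rose in 2. Scd2, a desaturase, fell by 2.38 and Fads1 by 1.68, while Fasn, fatty acid synthase itself, differed by -0.12 and did not pass. Cholesterol synthesis ran the other way, with 13 of 23 higher and 6 lower (median 0.14). Hmgcs1 rose by 1.04 and Hsd17b7 by 1.23, and Ebp fell by 1.38; 4 of the rises were called against a 1.5-fold change.

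Genes of energy metabolism were lower by small amounts in most pathways. Of 20 glycolysis genes 12 fell and 2 rose (median -0.37), of 23 genes of the TCA cycle and pyruvate entry 18 fell and 3 rose (median -0.31), of 36 complex I subunits 22 fell and 4 rose (median -0.17), of 21 subunits of complexes III and IV 12 fell and 2 rose (median -0.21), and of 15 ATP synthase subunits 9 fell and 2 rose (median -0.18). None of these genes changed 2-fold. Against a 1.5-fold change, 2 glycolysis genes, 2 TCA genes and no subunit of complex I, complexes III and IV or ATP synthase were called lower by limma (0 of these subunits also at an unadjusted p under 0.05). Sdhd, a complex II subunit counted in the TCA list, was among the 2. Without in vivo activated replicate 1, 14 complex I subunits fell. In glycolysis, Pfkp fell by 0.85, Pgk1 by 0.80, Hk2 by 0.74 and Ldha by 0.46; the glucose transporter gene Slc2a1 averaged 6.41 ± 0.41 in peak GC cells and 6.29 ± 0.07 in in vivo activated cells (adjusted p = 0.483). In the TCA list, the pyruvate carrier gene Mpc1 fell by 0.85 and Sdhd by 0.81, while Sdhb rose by 0.52 and Idh2 by 0.39.

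Mitochondrial fatty acid oxidation genes also fell more often than they rose. Of 26 tested members 17 fell and 2 rose (median -0.38); 4 were called lower against a 1.5-fold change. Cpt1a (chr19:3322334-3385733, plus strand), the carnitine palmitoyltransferase that admits fatty acids to mitochondria, had 7.86, 7.65 and 7.73 in peak GC libraries, against 6.24, 6.45 and 6.14 in in vivo activated libraries, and rose by 1.47 (SE 0.07, adjusted p = 2.32e-15 in limma). The enzymes downstream were lower: Eci2 fell by 1.39, Decr1 by 1.17 and Acadl by 1.16. Acadl had 6.70, 6.77 and 6.82 in peak GC libraries and 7.89, 7.90 and 7.99 in in vivo activated libraries. Peroxisomal genes gave 6 higher and 8 lower of 25, with 11 not passing (median -0.06). Cat (catalase) rose by 1.47 and Ehhadh, a bifunctional enzyme of peroxisomal oxidation, by 1.74, while Hsd17b4 fell by 1.11.

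Lipid uptake and lipolysis genes fell in 9 of 15 tested and rose in 2 (median -1.10). Cd36 (chr5:17781690-17888801, minus strand), a fatty acid transporter and scavenger receptor also known from marginal zone B cells, had 4.14, 4.02 and 3.79 in peak GC libraries, against 9.57, 9.74 and 9.69 in in vivo activated libraries. It fell by 5.68 (SE 0.14, adjusted p = 2.79e-19 in limma), and in vivo activated cells had the highest mean of the 8 groups, with naive cells at 7.28 ± 0.22. Marginal zone B cell markers stood beside it: 6 of 10 fell and 3 rose. Their summed level was 1060 to 1150 CPM in peak GC libraries against 2180 to 2630 CPM in in vivo activated libraries. Plac8 made up most of the gap between these sums. It had 3.28, 3.69 and 4.98 in peak GC libraries, against 9.87, 10.31 and 10.18 in in vivo activated libraries, and fell by 6.13. Cd1d1 fell by 6.12 and Cr2 by 0.30, while Dtx1, Mzb1 and Myof rose. The part of marginal zone B cells in the fall of Cd36 was not tested. Pnpla2, the main triglyceride lipase of cells, rose by 0.67. Hypoxia genes gave 6 higher and 8 lower of 17 tested, with Hif1a rising by 0.45 and Ero1l falling by 1.40. In the autophagy and lysosome list 9 of 25 rose and 12 fell; the kinase gene Ulk1, which starts autophagy, rose by 1.56, and the lysosomal enzymes Ctsb and Hexa fell by 2.05 and 1.82.

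**Figure D5:**
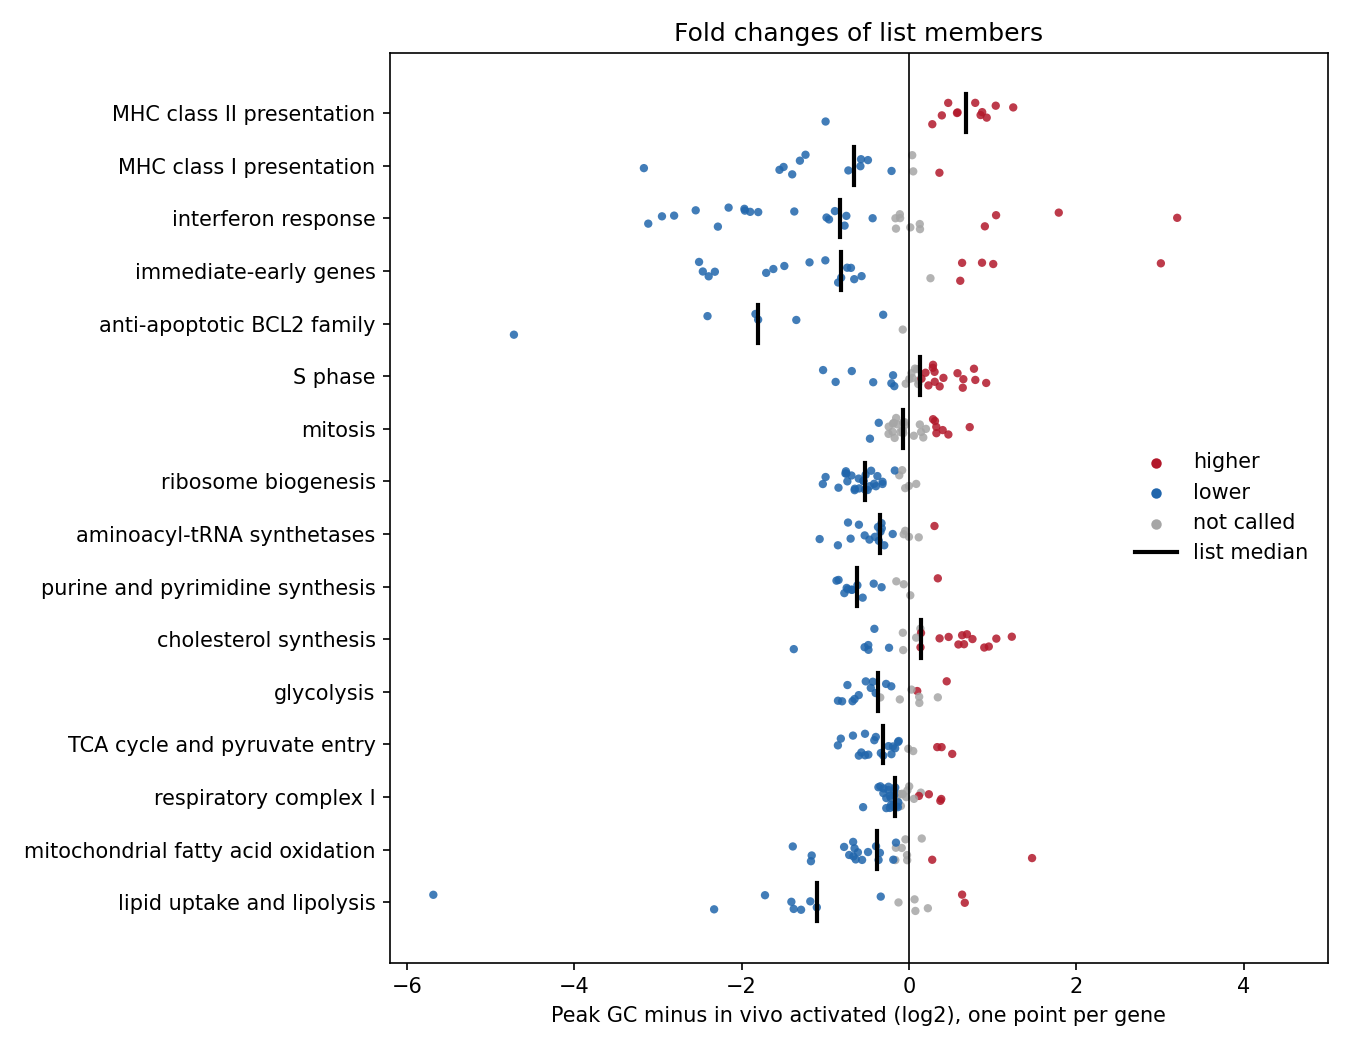
Peak GC minus in vivo activated (log2) for each tested member of 16 lists, in red where higher, blue where lower and grey where not called, with black bars at list medians; vertical position within a list is arbitrary. Ribosome biogenesis, synthetase, nucleotide, glycolysis, TCA and complex I genes lie mostly between 0 and -1 (medians -0.17 to -0.62), whereas some interferon, immediate-early, anti-apoptotic and lipid uptake genes lie below -2.

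Called genes with at least 10 CPM in the higher group were ranked by difference. Only genes without overlap between the groups' libraries, and with a mean of at least -5 in both groups, entered this ranking. Gene models were left out. The widest differences upward were those of Nuggc, Gcsam, Tox2, Ccrl1, Emp2, Basp1, Tgfa, Scn8a, Gnaz and Parm1, between 7.43 and 10.70. Downward they were those of Fcrl5, Alpl, Cblc, Tmem154, Oosp1, Slamf9, Wnt10a, Cxcr7, Atxn1 and Cpd, with differences between -6.93 and -11.38. Tox2, a transcription factor better known from follicular helper T cells, had 4.14, 4.81 and 4.58 in peak GC libraries, against -3.44, -4.08 and -6.11 in in vivo activated libraries. With a pseudocount of 1 CPM its rise of 9.05 became 4.50. Fcrl5, an Fc receptor-like protein of marginal zone and B-1 cells in mice, had -5.10, -6.14 and -3.40 in peak GC libraries and 6.42, 6.45 and 6.63 in in vivo activated libraries, and fell by 11.38, or by 6.45 with that pseudocount. Alpl, tissue-nonspecific alkaline phosphatase, had -1.95, -2.28 and -1.71 in peak GC libraries and 6.75, 6.44 and 6.68 in in vivo activated libraries. The lack of overlap was a condition of this choice and is no result for these 20 genes. For each of them one group lay near or under 1 CPM, so the size of these differences depends on how low values are treated.

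Dlg5 and Gcnt3 were on average at the floor of the deposited scale (below -5) in in vivo activated cells and at 10 CPM or more in peak GC cells, and no fold is given for them. Dlg5, a scaffold protein of cell polarity, had 6.39, 5.89 and 5.09 in peak GC libraries, against -5.87, -6.27 and -3.65 in in vivo activated libraries. Gcnt3, a glycosyltransferase, averaged 4.08 ± 0.33 in peak GC cells. No gene was at the floor in peak GC cells and at 10 CPM or more in in vivo activated cells.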

How the data were processed

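RNA was measured by sequencing of stranded poly(A) libraries (paired reads), per the labels' protocols. Per the submitters' processing notes the authors used cutadapt 1.8.3, STAR 2.6.0c, featureCounts, Subread 1.6.2, limma and mm10; counting options are not given in the sources used here, so reads of overlapping antisense genes may be mixed. The deposited values are log2 values per gene on a CPM-like scale: per library, 2 to the value sums to 992267 to 997687 in the 6 libraries. All libraries share nearly one distribution, and the means of replicate numbers differ by at most 0.0009, so an effect of replicate number was already removed.

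Genes at 0 log2 or more in 3 libraries were kept. limma 3.58.1 (R 4.3.3) was fitted with 1 mean per group over 24 libraries, with trend and robust variance. The fit had 16 residual degrees of freedom, with Benjamini-Hochberg adjustment over 11885 genes. It was also tested on simulated data with independent noise and few changed genes. Those data had no replicate effect removed, so they cannot show how that removal bears on the p-values here. Since the replicate effect was removed before deposit, the true residual degrees of freedom are fewer. Coordinates are from GENCODE (GRCm38), matched by symbol for 21737 genes; promoter windows are from RefSeq. Genes named were the 10 with the widest change in each direction at 10 CPM or more, and genes at the floor in 1 group. The former also had to show no overlap between the groups' libraries and a mean of at least -5 in both groups. Called list members were named by smallest p in limma. Others were named after their values were seen. The groups, lists and markers were chosen with earlier results of these data known. The 16 alternatives changed the samples, filter, pseudocount, centring, variance model, replicate block and null fold. Some genes are not reported here.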

Additional observations from a re-analysis of the deposited data

How the results depend on the processing

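Sequencing depth is unknown, so no counting interval can be given, and 7 tested genes were at the floor in all 6 libraries. Among 16 alternatives no named gene changed sign: of 3007 values for 188 genes, 2924 kept their side of the threshold, 82 lost it and 1 (Cd79a, without peak GC replicate 3) gained it; 48 of the 54 genes that lost it in any alternative did so only against a 1.5-fold change.

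Against a 1.5-fold change 3025 genes passed, 1487 higher and 1538 lower. By the construction of that test, members called higher were then 8 B cell transcription factors, 5 dark zone genes, 2 G protein and RGS genes, 3 antigen receptor genes, 4 NF-kB genes, 5 MHC class II genes, 3 PI3K genes, 2 pro-apoptotic genes, 1 S phase gene, 0 mitotic genes, 7 G1 genes, 8 mutation and repair genes, 1 amino acid transporter and 4 cholesterol genes. Members called lower were 9 immediate-early genes, 8 interleukin and JAK-STAT genes, 6 MHC class I genes, 3 polycomb and DNA methylation genes, 4 ribosome biogenesis genes, 3 synthetases, 2 one-carbon genes, 3 nucleotide genes, 5 fatty acid synthesis genes, 9 secretion genes, 2 glycolysis genes, 1 pentose phosphate gene, 2 TCA genes, 0 complex I, 0 complex III and IV and 0 ATP synthase subunits, 4 fatty acid oxidation genes, 3 peroxisomal genes, 2 hypoxia genes and 6 lysosomal genes. With a filter at 10 CPM, which tests fewer genes, 1624 genes changed at least 2-fold and 9 interferon genes fell.

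Leaving out 1 library at a time gave 7723 to 8014 called genes, 3826 to 3993 higher, 3890 to 4094 lower and 2757 to 2807 at least 2-fold. Mitotic genes called higher were 3 to 7, with 3 without peak GC replicate 3, and complex I genes called lower were 14 to 22, with 14 without in vivo activated replicate 1; the cause was not tested. The replicate block gave 7956 called genes, 3924 higher and 4032 lower, and moved no list count by more than 1.5 times. As an effect of replicate number was removed before deposit, the block takes only degrees of freedom (14 remain of 16), and this is no sign of stability. Deviations of same-numbered libraries had correlations of -0.055, -0.169 and -0.071; that removal pushes them below 0, so they do not show whether the numbers have a shared origin, and the labels give none.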

Other observations

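The following genes were chosen after their values were seen, and adjusted p-values are from limma over all tested genes. Ada, adenosine deaminase, had 7.93, 7.92 and 7.86 in peak GC libraries, against 2.64, 2.71 and 2.88 in in vivo activated libraries, and rose by 5.16 (SE 0.08, adjusted p = 3.00e-23). Adora2a, an adenosine receptor, averaged 0.52 ± 0.57 in peak GC cells and 3.71 ± 0.13 in in vivo activated cells (SD, n = 3), and fell by 3.20. Apobec1, a cytidine deaminase gene, had 8.20, 8.25 and 8.29 in peak GC libraries, against 4.85, 5.18 and 5.20 in in vivo activated libraries, and rose by 3.17. The 3 peak GC libraries were nearly equal for Ada and Apobec1.

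Several genes were highest in in vivo activated cells. Mt1 and Mt2, which encode the metal-binding metallothioneins, averaged 1.69 ± 0.89 and 0.53 ± 0.81 in peak GC cells, against 6.80 ± 0.34 and 5.06 ± 0.56 in in vivo activated cells, with naive cells at 1.64 ± 0.24 and -0.09 ± 0.28. Tlr7, a receptor for single-stranded RNA, had 0.41, 0.03 and 0.34 in peak GC libraries and 6.01, 6.23 and 6.27 in in vivo activated libraries, and fell by 5.91. The integrin gene Itgax (CD11c), known from atypical memory B cells, fell by 2.69, Zeb2 by 1.33 and Tbx21 (T-bet) by 1.26; Zeb2 and Tbx21 were higher in naive cells (6.21 ± 0.08 and 1.98 ± 0.28) than in either group. Bhlhe41, a transcription factor of B-1 cells, fell by 4.42 and the tetraspanin gene Cd9 by 3.97.

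Among whole gene families, 58 of 72 tested cytosolic ribosomal protein genes fell and none rose in limma (1 was higher at an unadjusted p under 0.05), with a median difference of -0.26 and no 2-fold change. Mitochondrial ribosomal protein genes gave 35 lower and 6 higher of 76, and proteasome subunits 20 lower and 6 higher of 39. Peak GC replicate 1 was the lowest of its group for Irf4, Ccr7, Egr2, Cd274, Bbc3, Sdc1 and Mt1, and peak GC replicate 3 the highest for the neutrophil gene Mpo (3.63, 3.77 and 5.64 in peak GC libraries, against -0.01, -0.10 and 0.59 in in vivo activated libraries).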
